A study of Mus musculus with 2 samples.

Results

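The Ifitm family encodes small membrane proteins that interferon induces and that hinder enveloped viruses as they enter cells. The 4 genes described here are Ifitm1, Ifitm2, Ifitm3 and Ifitm6, of 17608 genes in the deposited table. They were chosen by family name, with their levels in these cells already known, so those levels are given as a description and support nothing. The table holds 3 further Ifitm genes, Ifitm5, Ifitm7 and Ifitm10, which are used for comparison. The cells are red cell progenitors from C57BL/6 mouse fetal liver at embryonic day 14.5, described in the labels as low in CD71 and CD24. BFU-E, or burst-forming units, are the early committed progenitors of the red lineage, and they give rise to CFU-E, or colony-forming units. A hashed library held 4 isolations marked by barcoded antibodies. They were FACS BFU-E and PE-low, called early here, and FACS CFU-E and PE-high, called late. A CITE-seq library held cells stained with antibodies to CD117 and CD71, named CS BFUE (early), CS CFUE (late) or unknown. The design asks how progenitors from a magnet method and from fluorescence-activated cell sorting (FACS) compare.

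No genetic change or transgene is named for any group. A culture of 10 days in 100 uM dexamethasone or in methanol is described as well, without saying whether the sequenced cells went through it. The sources used here do not say what PE and CS stand for, how cells received their names, how doublets were treated or how many embryos were pooled. FACS BFU-E had 233 cells, PE-low 208, CS BFUE 122, FACS CFU-E 167, PE-high 294 and CS CFUE 195, while 2136 cells of the CITE-seq library and 2 of the hashed library had no pool name. Cells held 6863 to 49971 unique molecular identifiers (UMIs, each standing for 1 captured RNA molecule), with median depths of 23449 to 38663.5 over the 6 pools, and the libraries shared 0 cell barcodes. Summed early progenitor genes were at 1391 to 1786 CPM (UMIs of a gene per 1000000 UMIs of the pool) in the 3 early pools and at 493 to 662 in the 3 late ones, and summed CFU-E stage genes at 1457 to 2132 and 5290 to 6584. Markers of other blood cells moved with the stage too: 9 granulocyte progenitor markers summed to 642 to 1372 CPM in the early pools and 6.74 to 192 in the late ones. Each pool is 1 sample, so no difference below has a replicate check, and the 95% intervals cover counting error only.

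Type I interferons act through the receptor chains Ifnar1 and Ifnar2 and the kinases Jak1 and Tyk2, and their targets carry interferon-stimulated response elements in promoters. Interferon gamma acts through Ifngr1 and Ifngr2, and its targets carry gamma-activated sites. Ifitm1 sits mainly at the cell surface and Ifitm3 in endosomes, and stem and progenitor cells are known to keep some interferon-stimulated genes on without infection. Mpo encodes myeloperoxidase, a granule enzyme of neutrophil precursors, and marks cells of the granulocyte and monocyte branch. Cells were therefore looked at in 3 classes. There were 242 cells (7.21%) with 5 or more Mpo UMIs. A further 76 cells (2.26%) had fewer than 5 Mpo UMIs and 5 or more UMIs summed over 12 monocyte and macrophage markers such as Lyz2, Csf1r and Ctss. The 3039 remaining cells (90.5%) had neither.

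The 4 genes lie together with Ifitm5, a gene known for its role in bone, within 67935 bases of chromosome 7 (GRCm38.p6, the assembly that mm10 denotes, chr7:140948958-141016892). Ifitm2 spans 140954837 to 140959686 on the minus strand, Ifitm1 140967429 to 140969827 on the plus strand, Ifitm3 141009590 to 141010744 and Ifitm6 141015812 to 141016892, both on the minus strand. Ifitm7 lies on chromosome 16 and Ifitm10 farther along chromosome 7. All 4 genes matched RefSeq's promoter table of that assembly by symbol. The 100 bases before each start site are shown because neighbouring genes with different levels can be compared there, with matches to the motifs below in capitals. For Ifitm1 and Ifitm2 the start site of the table lies inside the annotated gene, so their windows also do, while those of Ifitm3 and Ifitm6 end at the gene's edge. The windows are chr7:140967976-140968075 (plus strand) for Ifitm1, chr7:140955962-140956061 (minus) for Ifitm2, chr7:141010745-141010844 (minus) for Ifitm3 and chr7:141016893-141016992 (minus) for Ifitm6. The first 30 transcribed bases of Ifitm3, chr7:141010715-141010744 (minus), are added because they hold 3 overlapping or adjoining matches.
Ifitm1, -100 to -1: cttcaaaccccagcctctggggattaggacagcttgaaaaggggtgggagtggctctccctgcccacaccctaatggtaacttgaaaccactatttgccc
Ifitm2, -100 to -1: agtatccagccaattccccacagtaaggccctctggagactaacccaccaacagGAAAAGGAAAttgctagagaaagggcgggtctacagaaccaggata
Ifitm3, -100 to -1: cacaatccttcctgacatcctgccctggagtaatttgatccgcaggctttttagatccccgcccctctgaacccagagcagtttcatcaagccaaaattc
Ifitm6, -100 to -1: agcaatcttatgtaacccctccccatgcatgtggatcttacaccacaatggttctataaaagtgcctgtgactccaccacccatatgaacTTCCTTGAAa
Ifitm3, +1 to +30: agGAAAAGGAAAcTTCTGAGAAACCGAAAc

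In these windows, counted from the first transcribed base as +1, the interferon-stimulated response element motif, GAAA repeated after any 2 bases, occurred in Ifitm2 at -46 to -37 and in Ifitm3 at +3 to +12 and +20 to +29. It was searched on both strands over 250 bases before and 50 after the start, and 3.44% of 32851 promoters of the table held it. TTCNNNGAA, the gamma-activated site, was present in 8.30% of promoters, among them Ifitm3 at +14 to +22, where it overlaps the response element match, and Ifitm6 at -10 to -2. The GATA motif TGATAA (9.05% of promoters) matched once, in Ifitm3 at -235 to -230. The GATA motif AGATAA (11.2%) and the PU.1 motif GAGGAA (28.3%) had no match in these 4 windows, and the Ifitm1 window held none of the 5 motifs. These are matches of letters only.

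Ifitm2 was found in nearly every cell of the early pools. Its level was 327 CPM (314 to 340) in FACS BFU-E, 277 (265 to 290) in PE-low and 356 (335 to 378) in CS BFUE, against 36.7 (32.1 to 41.8) in FACS CFU-E, 63.2 (58.6 to 68.0) in PE-high and 57.4 (52.0 to 63.2) in CS CFUE. All 3 early pools lay above all 3 late pools, and no intervals overlapped across the stages. From the highest, the order was CS BFUE, FACS BFU-E, PE-low, PE-high, CS CFUE and FACS CFU-E, and PE-high and CS CFUE did not differ beyond counting error (ratio 1.10, 0.974 to 1.25). A UMI of Ifitm2 was present in 99.1%, 96.6% and 98.4% of cells of FACS BFU-E, PE-low and CS BFUE and in 57.5%, 68.7% and 72.3% of FACS CFU-E, PE-high and CS CFUE. After every cell was thinned to 6000 UMIs, which left out no cell, the shares were 81.5%, 75.0% and 86.9% against 17.4%, 32.0% and 28.2%. Cells with no pool name in the CITE-seq library stood between, at 83.7 CPM (81.4 to 86.0).

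Ifitm1 was found in fewer cells and varied far more between pools. Its level was 90.6 CPM (83.8 to 97.7) in FACS BFU-E, 77.4 (71.0 to 84.1) in PE-low and 97.7 (86.8 to 110) in CS BFUE. In the late pools it was 0.481 CPM in FACS CFU-E (3 UMIs, 0.0993 to 1.41), 19.99 (17.4 to 22.8) in PE-high and 2.87 (1.78 to 4.39) in CS CFUE. The late pools thus differed among themselves much more than the early ones did. CS BFUE and FACS BFU-E, at the top of the order, did not differ beyond counting error (ratio 1.08, 0.936 to 1.24), and every other neighbour did. A UMI was present in 44.2% of FACS BFU-E cells and 1.80% of FACS CFU-E cells. Within a pool the UMIs were unevenly spread: the 23 FACS BFU-E cells with the most Ifitm1 UMIs held 70.7% of them, against 20.3% for Ifitm2 in as many cells. In PE-high a single cell held 73 of 220 Ifitm1 UMIs (33.2%), and in CS CFUE a single cell held 14 of 21.

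Ifitm3, the member best known for blocking viruses in endosomes, was highest in PE-low. Its level was 160 CPM (150 to 169) there, 95.3 (88.4 to 103) in FACS BFU-E and 92.0 (81.4 to 104) in CS BFUE, and 6.10 (4.31 to 8.37) in FACS CFU-E, 25.8 (22.9 to 29.0) in PE-high and 8.06 (6.14 to 10.4) in CS CFUE. The stages did not overlap, and PE-low and PE-high were each the highest of their stage. FACS BFU-E and CS BFUE did not differ beyond counting error (ratio 1.04, 0.900 to 1.20), nor did CS CFUE and FACS CFU-E (1.32, 0.865 to 2.04). A UMI was found in 62.2% of FACS BFU-E, 51.9% of PE-low and 59.8% of CS BFUE cells and in 19.2%, 17.7% and 13.3% of FACS CFU-E, PE-high and CS CFUE cells. PE-low thus had the highest level but not the highest share of cells. A single cell held 59 of the 284 Ifitm3 UMIs of PE-high (20.8%).

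Ifitm6 was scarce. It was at 4.34 CPM (2.97 to 6.13) in FACS BFU-E, 5.65 (4.03 to 7.69) in PE-low, 1.82 (1.11 to 2.81) in PE-high and 0.337 (1 UMI) in CS BFUE. No UMI was found in 167 FACS CFU-E cells, which allows up to 0.481 CPM, or in 195 CS CFUE cells, which allows up to 0.410. PE-low and FACS BFU-E did not differ beyond counting error (ratio 1.30, 0.797 to 2.14). Of its 242 UMIs over all names, the unnamed CITE-seq cells held 149. Among the other family members, Ifitm5 had 15 UMIs in all cells, Ifitm7 had 23 and Ifitm10 had 11, and 20 of the 23 Ifitm7 UMIs lay in the 242 cells with 5 or more Mpo UMIs.

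**Figure D1:**
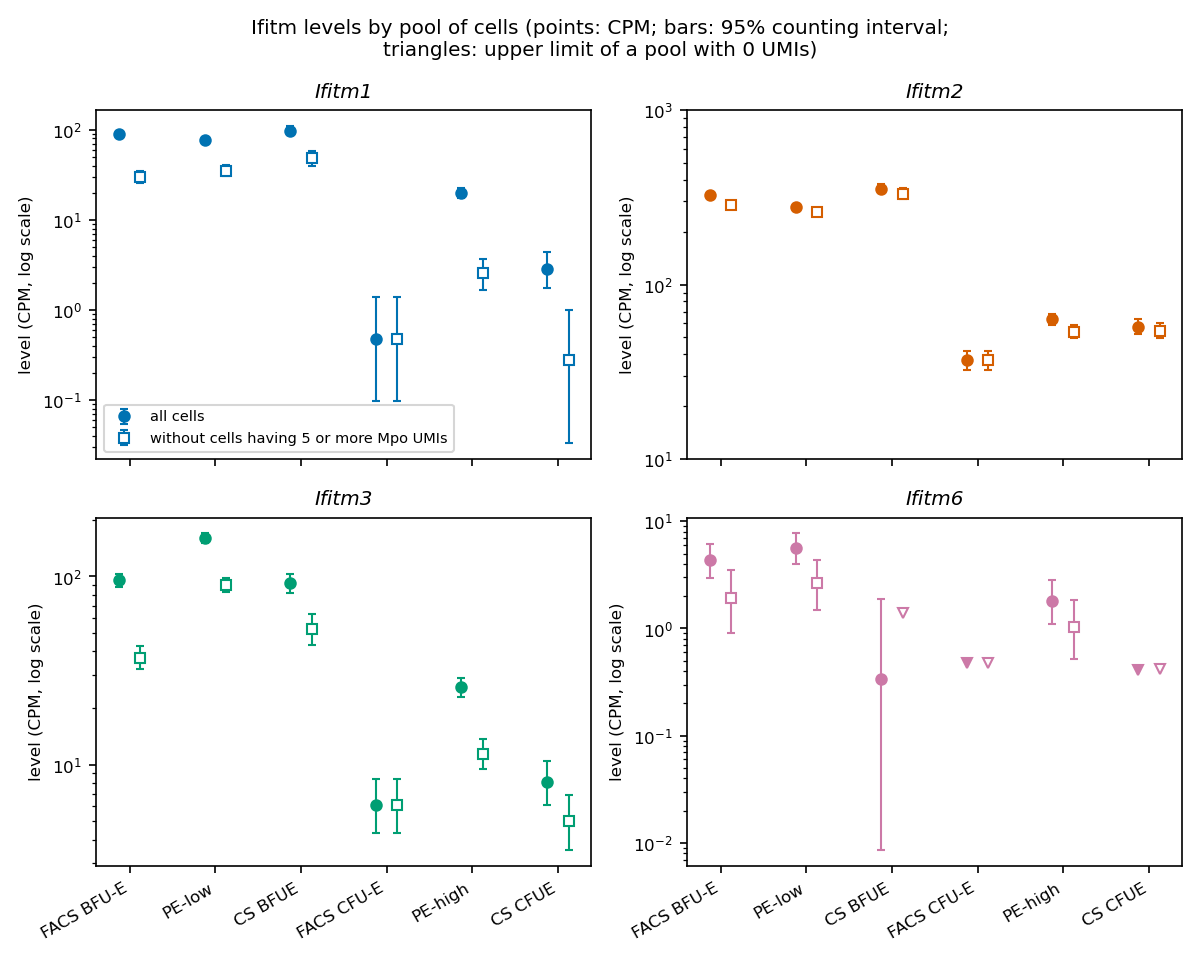
Level of each gene in CPM (log scale) in the 6 pools, with filled circles for all cells and open squares after leaving out cells with 5 or more Mpo UMIs; bars are 95% counting intervals and triangles the limit that 0 UMIs allow. Ifitm2 points nearly coincide, from 327 to 288 CPM in FACS BFU-E, while Ifitm1 goes from 90.6 to 30.2 CPM there and from 19.99 to 2.55 CPM in PE-high.

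The 4 genes differed in which cells held their UMIs. Of 11987 Ifitm2 UMIs, 75.0% were in the remaining cells, 21.2% in cells with 5 or more Mpo UMIs and 3.75% in the monocyte-marker cells. For Ifitm1 the same shares of 2808 UMIs were 23.3%, 62.6% and 14.1%, and for Ifitm3, of 5081 UMIs, 20.4%, 47.5% and 32.1%. Only 4 of 242 Ifitm6 UMIs (1.65%) were in the remaining cells, with 43.8% in the Mpo cells and 54.5% in the monocyte-marker cells. The first class holds 7.21% of cells and the second 2.26%. So most Ifitm1, Ifitm3 and Ifitm6 UMIs came from these small classes, and most Ifitm2 UMIs did not.

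Each gene also had its own order over the classes. Over all names Ifitm1 was at 267 CPM (254 to 279) in the Mpo cells, 245 (221 to 270) in the monocyte-marker cells and 6.80 (6.29 to 7.34) in the remaining cells. Ifitm3 was highest in the monocyte-marker cells, with 1006 CPM (957 to 1056) there, 366 (351 to 381) in the Mpo cells and 10.8 (10.2 to 11.5) in the remaining ones. Ifitm6 had the same order, at 81.4 (68.1 to 96.5), 16.1 (13.2 to 19.4) and 0.0416 CPM (0.0113 to 0.107). Ifitm2 was highest in the Mpo cells, at 386 CPM (371 to 401), with 277 (252 to 304) and 93.6 (91.7 to 95.6) in the other two. Its spread over the classes was the narrowest of the 4.

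**Figure D2:**
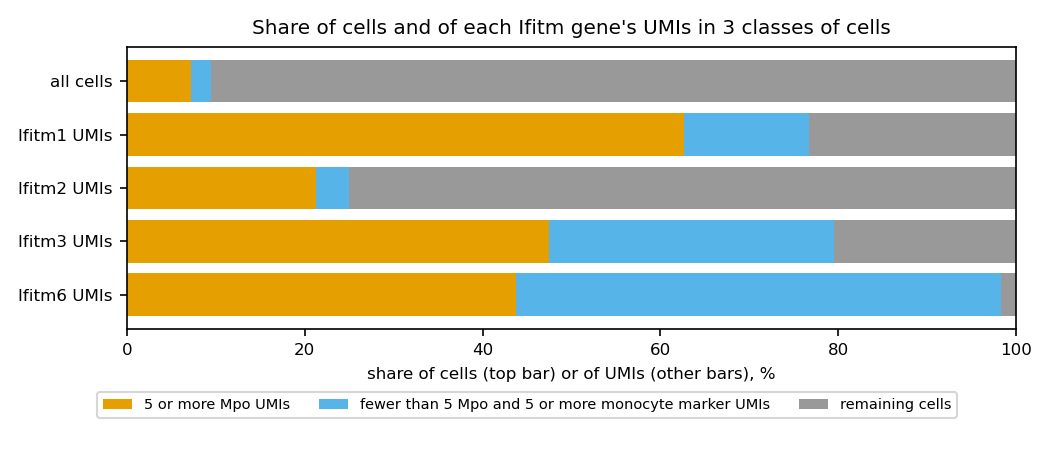
Share of all 3357 cells (top bar) and of the UMIs of each gene (other bars) in 3 classes of cells, in percent. The remaining cells, in grey, hold 90.5% of cells, 75.0% of Ifitm2 UMIs, 23.3% of Ifitm1 UMIs, 20.4% of Ifitm3 UMIs and 1.65% of Ifitm6 UMIs.

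Within the Mpo cells the pools were much closer to each other than over all cells. Ifitm1 was at 238 CPM (218 to 260) in the 75 such cells of FACS BFU-E, 243 (218 to 270) in 44 of PE-low, 225 (194 to 260) in 35 of CS BFUE, 449 (388 to 517) in 17 of PE-high and 308 (282 to 336) in 68 without a pool name. FACS CFU-E had 0 such cells and CS CFUE 3. Ifitm2 was at 422, 335, 417, 295 and 405 CPM in the same 5 sets of cells. The Ifitm1 level of PE-high rests in part on a single cell with 73 of its 193 UMIs (37.8%), and its median cell, at 182 CPM, was below that of the unnamed cells, at 267. Ifitm3 was less even, at 237 CPM (217 to 259) in FACS BFU-E, 431 (398 to 467) in PE-low, 195 (166 to 227) in CS BFUE, 379 (323 to 442) in PE-high and 575 (539 to 613) without a name. A single cell held 30.1% of the Ifitm3 UMIs of the PE-high set, whose median cell, at 154 CPM, was not above that of CS BFUE, at 159.

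Levels were already above those of cells without Mpo just under the chosen limit of 5 Mpo UMIs. Cells with 0, 1, 2 to 4, 5 to 9, 10 to 49 and 50 or more Mpo UMIs numbered 2921, 155, 39, 36, 130 and 76. In that order Ifitm1 was at 7.52, 37.9, 151, 330, 242 and 279 CPM and Ifitm3 at 21.2, 63.1, 374, 455, 400 and 291. Ifitm6 was at 0.865, 5.26, 27.0, 26.4, 15.8 and 13.0 CPM and Ifitm2 at 92.3, 133, 291, 344, 407 and 372. Just inside the limit, at 5 to 9, Ifitm1 was above its level just outside it, at 2 to 4 (292 to 371 against 128 to 176), while the intervals of the other three overlapped there. Ifitm3 was lower again in the cells with the most Mpo. Cells with 5 or more monocyte and macrophage marker UMIs made up 1.71%, 7.74%, 35.9%, 47.2%, 36.2% and 76.3% of these bins, and their part in the Mpo bins was not tested. With them left out, the cells with 2 to 4 Mpo UMIs, 25 in number, had 74.1 CPM (55.5 to 96.9) of Ifitm3 and 88.0 (67.7 to 113) of Ifitm1, against 9.92 (9.28 to 10.6) and 5.52 (5.04 to 6.02) with 0 Mpo UMIs.

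**Figure D3:**
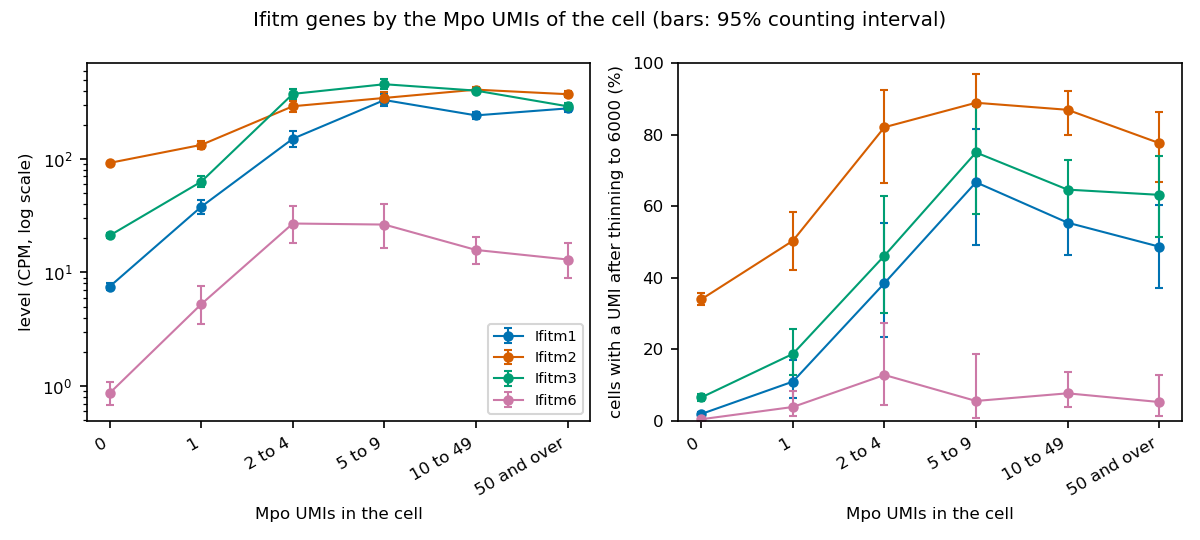
Level in CPM (log scale, left) and share of cells with a UMI after thinning to 6000 UMIs (right, %), by the number of Mpo UMIs in the cell; bars are 95% counting intervals. Ifitm3 goes from 21.2 CPM with 0 Mpo UMIs to 455 with 5 to 9 and 291 with 50 or more, while Ifitm2 goes from 92.3 to 407 with 10 to 49.

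FACS BFU-E had more of every member than FACS CFU-E, and the size depended on the Mpo cells for Ifitm1 and Ifitm3 far more than for Ifitm2. Ifitm2 was 8.89-fold higher (7.76 to 10.2) in all cells and 7.83-fold (6.81 to 9.04) without the Mpo cells. Ifitm1 was 188-fold higher (64.1 to 915) and 62.7-fold (21.1 to 307) on 3 UMIs in FACS CFU-E, and Ifitm3 15.6-fold (11.3 to 22.3) and 6.08-fold (4.28 to 8.85). Ifitm6 was at least 9.01-fold higher, and at least 3.97-fold without the Mpo cells, taking 3 UMIs as the limit for FACS CFU-E. These values leave out counting error in FACS BFU-E, and the exact counting intervals began at 6.92 and 2.67. A gene was compared if it reached 50 CPM and 10% of cells in a pool of the pair, and 1.5-fold is a fixed size, not a test. Ifitm1, Ifitm2 and Ifitm3 entered and passed 1.5-fold, each by being over 50 CPM only in FACS BFU-E, which fixes their direction. Of 3476 genes compared, 9.58% were at least 1.5-fold higher in FACS BFU-E. Without the Mpo cells only Ifitm2 entered, beside 6.84% of 3422 genes past that size. The members were proposed with these contrasts known, so nothing is read from those counts.

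PE-low and PE-high, taken as the fractions of the magnet method, differed less over all cells. Without the Mpo cells this did not hold for Ifitm3, at 7.88-fold against 6.08-fold in the FACS pair, with intervals that overlap. Ifitm2 was 4.39-fold higher (4.02 to 4.79) in PE-low in all cells and 4.89-fold (4.43 to 5.39) without Mpo cells. Ifitm1 moved the other way from the FACS pair: its ratio was 3.87 (3.30 to 4.54) in all cells and 13.7 (9.16 to 21.4) without the Mpo cells. Those cells held 193 of the 220 Ifitm1 UMIs of PE-high. Ifitm3 was 6.19-fold higher (5.43 to 7.07) and 7.88-fold (6.45 to 9.69), and Ifitm6 3.11-fold (1.77 to 5.61) and 2.56-fold (1.10 to 6.15). Without the cell of each pool with the most Ifitm UMIs, the Ifitm3 log2 ratio without Mpo cells went from 2.98 to 3.85. Ifitm1, Ifitm2 and Ifitm3 entered the comparison and passed 1.5-fold, beside 6.94% of 3443 genes, and without the Mpo cells Ifitm2 and Ifitm3 did, beside 5.52% of 3406. Ifitm2 was over 50 CPM in both pools, while Ifitm1 and Ifitm3 entered only through PE-low.

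CS BFUE and CS CFUE gave the same order. Ifitm2 was 6.20-fold higher (5.53 to 6.96) in CS BFUE, and 6.11-fold (5.39 to 6.93) without Mpo cells. Ifitm3 was 11.4-fold higher (8.58 to 15.4) and 10.4-fold (7.11 to 15.7). For Ifitm1 the ratio was 34.0 (21.9 to 55.8) in all cells and 175 (47.1 to 1460) without the Mpo cells, where CS CFUE kept only 2 UMIs, so that the ratio is poorly determined. The change comes from 3 Mpo cells of CS CFUE, which held 19 of its 21 Ifitm1 UMIs, and without the cell of each pool with the most Ifitm UMIs the log2 ratio over all cells went from 5.09 to 6.49. No ratio is given for Ifitm6, with 1 UMI against 0. Ifitm1, Ifitm2 and Ifitm3 entered and passed 1.5-fold, beside 8.77% of 3077 genes, and without Mpo cells Ifitm2 and Ifitm3 did, beside 6.58% of 3025. Ifitm1 and Ifitm3 entered only through CS BFUE, which fixes their direction.

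In the remaining cells, with Mpo cells and monocyte-marker cells both left out, the early pools were still higher for 3 members. The ratio of Ifitm2 was 7.81 (6.79 to 9.02) for the FACS pair, 4.85 (4.40 to 5.36) for the PE pair and 6.10 (5.38 to 6.92) for the CS pair. For Ifitm3 it was 4.88 (3.40 to 7.16), 6.51 (4.65 to 9.26) and 9.59 (6.50 to 14.5), and for Ifitm1 56.2 (18.8 to 276), 8.29 (4.98 to 14.5) and 132 (35.2 to 1110), the first on 3 UMIs in FACS CFU-E and the last on 2 in CS CFUE. The order of the 3 pairs differed between the genes. Ifitm6 had 1 UMI in FACS BFU-E, 1 in PE-high and 0 in the other 4 pools of these cells, so it has no ratio.

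PE-low and FACS BFU-E, the early fractions of the 2 methods, had nearly the same summed Ifitm level, with a ratio of 1.01 (0.961 to 1.05), but not the same members. Ifitm3 was 1.67-fold higher (1.52 to 1.84) in PE-low, while Ifitm1 had a ratio of 0.854 (0.761 to 0.958) and Ifitm2 of 0.849 (0.799 to 0.901). Ifitm3 alone of the 3 passed 1.5-fold, beside 0.796% of 3267 genes past it either way. Without the Mpo cells the Ifitm3 ratio was 2.43 (2.06 to 2.89), with 0.490% of 3267 genes past 1.5-fold. Ifitm3 then entered only through PE-low, which fixes its direction. PE-low held 10 monocyte-marker cells with 357 of its 1131 Ifitm3 UMIs, at 1211 CPM (1089 to 1344), and FACS BFU-E held 2 such cells with 40 UMIs. In the remaining cells Ifitm3 was at 28.4 CPM (24.1 to 33.3) in PE-low and 29.8 (25.2 to 34.9) in FACS BFU-E, a ratio of 0.955 (0.758 to 1.20). That interval includes 1, whereas those over all cells and without the Mpo cells did not. The 12 monocyte and macrophage markers summed to 219 CPM in PE-low, with C1qa at 0, and to 111 in FACS BFU-E, with C1qa and C1qc at 0, and to 5.05 and 6.96 in the remaining cells. Ifitm2 kept its ratio there, at 0.902 (0.838 to 0.972). Ifitm1 had a ratio of 0.553 (0.415 to 0.733), but a single FACS BFU-E cell held 35 of the 140 UMIs of that pool. An Ifitm1 UMI was found in 36 of 154 such cells of PE-low and 39 of 156 of FACS BFU-E, and after thinning in 13 and 12. The counting interval does not cover this uneven spread over cells, so it does not establish a lower level in PE-low.

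PE-high and FACS CFU-E, the late fractions, differed by more. Ifitm1 was 41.5-fold higher (14.0 to 203) in PE-high, Ifitm3 4.23-fold (3.01 to 6.11), Ifitm2 1.72-fold (1.48 to 2.00) and Ifitm6 at least 3.78-fold. The Ifitm6 value takes 3 UMIs for FACS CFU-E, and its exact counting interval began at 2.80. Only Ifitm2 entered the comparison, and only through PE-high, which fixes its direction. It was past 1.5-fold, as 0.829% of 3257 genes were. Without the Mpo cells Ifitm2 was 1.46-fold higher (1.25 to 1.71), just under that size, beside 0.616% of 3249 genes. Ifitm1 was then 5.31-fold (1.63 to 27.3) and Ifitm3 1.88-fold (1.29 to 2.78) higher. With the monocyte-marker cells out as well, Ifitm3 was at 4.37 CPM (3.20 to 5.83) in PE-high and 6.10 (4.31 to 8.37) in FACS CFU-E, so that their ratio was 0.716 (0.456 to 1.13). Just 2 monocyte-marker cells of PE-high held 75 of its 284 Ifitm3 UMIs, and without the cell of each pool with the most Ifitm UMIs the log2 ratio of Ifitm3 without Mpo cells went from 0.91 to 0.10. PE-high had 17 Mpo cells and FACS CFU-E none. The monocyte and macrophage markers summed to 47.4 CPM in PE-high, with none at 0, and 3.05 in FACS CFU-E, with 7 of 12 at 0, Ctss, Mpeg1 and Adgre1 among them.

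**Figure D4:**
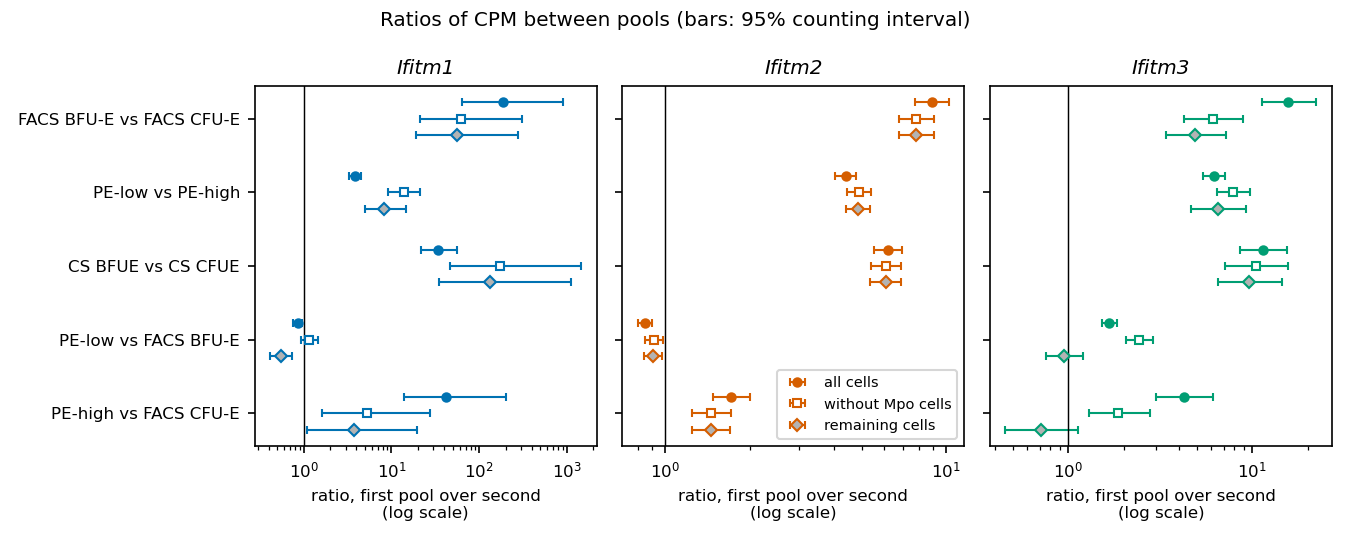
Ratio of levels between pools (log scale) for Ifitm1, Ifitm2 and Ifitm3 in 5 comparisons, over all cells (circles), without cells having 5 or more Mpo UMIs (squares) and over the remaining cells (diamonds); bars are 95% counting intervals and the line marks equal levels. Ifitm2 ratios barely move, from 8.89 to 7.81 in the FACS pair, while Ifitm3 in PE-low against FACS BFU-E goes from 1.67 to 2.43 to 0.955.

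Free RNA released by broken cells can put UMIs into cells that do not make a transcript. Mpo gives a gauge in FACS CFU-E, where no cell had 5 or more: 22 Mpo UMIs lay in 10.8% of cells (median depth 38377), or 4.19% after thinning, and FACS BFU-E (median depth 31594) had 44.2%. Ifitm1 in FACS CFU-E was below that gauge, in 1.80% of cells, with 0.136 UMIs for each Mpo UMI, near the 0.102 of the Mpo cells of FACS BFU-E. Ifitm2 had 10.4 UMIs for each Mpo UMI there, against 0.181 in those Mpo cells, and was in 17.4% of thinned cells. Ifitm3 had 1.73 UMIs for each Mpo UMI, against 0.102, and was in 19.2% of cells at full depth but in 3.59% after thinning, no more than Mpo. Over all cells of FACS BFU-E, PE-low and PE-high the Ifitm2 value was higher, at 0.480, 0.777 and 0.844 UMIs for each Mpo UMI. For Ifitm3 it was 0.140, 0.447 and 0.345. Whether free RNA accounts for any of these UMIs was not tested.

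Among the remaining cells, Ifitm2 was lower with more CFU-E stage genes, and Ifitm1 was too until it neared 0. Ifitm3 and Ifitm6 did not follow that order throughout. Cells were split into quintiles of all 3357 by the share of their UMIs in 18 CFU-E stage genes such as Tfrc, Klf1 and Epor, and 364, 665, 669, 670 and 671 remaining cells fell in them. Ifitm2 was at 344 CPM (332 to 356), 122 (118 to 127), 58.4 (55.3 to 61.6), 38.1 (35.5 to 40.8) and 34.5 (31.9 to 37.2) from the lowest quintile to the highest. It was thus lower at each step, though the last 2 intervals overlap. Ifitm2 was found in 97.0%, 85.7%, 70.0%, 55.5% and 44.7% of cells, at median depths of 27290, 33957, 33447, 31549 and 27338 UMIs, which do not follow that order. Ifitm1 was at 57.0 CPM (52.4 to 61.9) in the lowest quintile and already at 2.69 (2.05 to 3.45) in the next. It was then at 0.486, 0.417 and 0.312, on 11, 9 and 6 UMIs, with intervals that overlap. The first 2 quintiles were at 84.7 and 0.944 CPM in the CITE-seq library and at 34.4 and 6.75 in the hashed library. The size of the step thus differed between the libraries. However, a single cell held 149 of the 378 Ifitm1 UMIs of the lowest quintile in the CITE-seq library (39.4%). In the hashed library the top cell held 18.6% of 188. The counting intervals do not cover this uneven spread. Ifitm1 UMIs thus lay mostly in the cells lowest in CFU-E stage genes, where 26.6% of cells held one. Those cells include some with markers of other lineages, such as the cell with 149 Ifitm1 UMIs, described below. Of all remaining cells, 30 with 5 or more lymphoid marker UMIs held 304 of 653 Ifitm1 UMIs. The quintiles were not computed without them.

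Ifitm3 was lowest in the middle of that order. It was at 57.7 CPM (53.1 to 62.6), 7.05 (6.00 to 8.23), 3.71 (2.96 to 4.60) and 3.66 (2.90 to 4.57) in the first 4 quintiles and at 7.38 (6.22 to 8.70) in the last. The last interval lies above both before it. In the CITE-seq library the last 2 quintiles were at 3.47 (2.62 to 4.52) and 7.36 (6.03 to 8.89), and in the hashed library at 4.20 (2.69 to 6.24) and 7.46 (5.20 to 10.4), where the intervals overlap. After thinning, over both libraries, 2.24% (1.26 to 3.67) and 3.87% (2.55 to 5.63) of cells of those quintiles held a UMI, and these intervals overlap. The deeper quintile of the pair, 4, had the lower share. Summed erythroblast genes such as Alas2 and Slc4a1 were at 3020 CPM in quintile 4 and 11594 in the last. Ifitm6 had 0, 2, 0, 0 and 2 UMIs in the 5 quintiles.

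**Figure D5:**
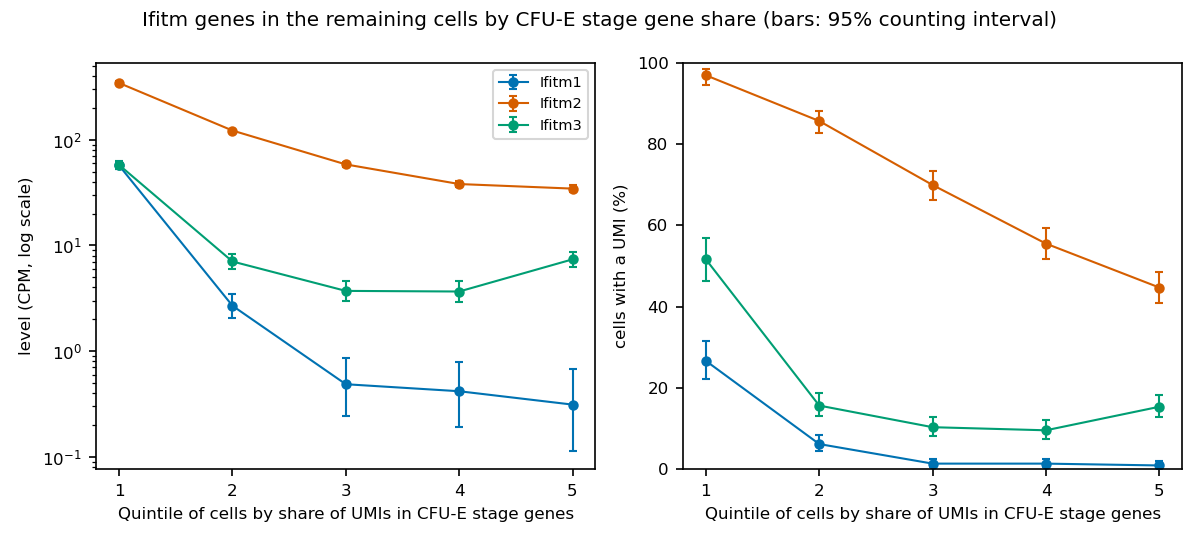
Level in CPM (log scale, left) and share of cells with a UMI (right, %) for Ifitm1, Ifitm2 and Ifitm3 in the remaining cells, by quintile of the share of UMIs in CFU-E stage genes; bars are 95% counting intervals. Ifitm2 goes from 344 to 34.5 CPM over the quintiles, Ifitm1 from 57.0 to 0.312, and Ifitm3 from 57.7 to 3.66 and then 7.38.

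A few of the remaining cells held much of their Ifitm1. The cell with the most, an unnamed CITE-seq cell of 32930 UMIs, had 149 Ifitm1, 69 Ifitm2 and 28 Ifitm3 UMIs and 0 of Mpo and of the monocyte and macrophage markers. It also had 24 UMIs of lymphoid markers, where the median remaining cell had 0, and 25 of stem and multipotent progenitor markers, where the median was 4. Chosen after these values were seen, the 30 remaining cells with 5 or more lymphoid marker UMIs held 304 of 653 Ifitm1 UMIs. Their Ifitm1 level was 455 CPM (405 to 509), against 3.66 (3.28 to 4.06) in the other 3009. Only 14 of the 30 cells held an Ifitm1 UMI, and 3 cells held 79.6% of the 304. Without the cell described above the level was 244 CPM (207 to 285) in 29 cells, where 3 cells held 82.6% of the Ifitm1 UMIs. Ifitm3 was at 166 CPM (137 to 200) against 9.72 (9.10 to 10.4), and Ifitm2 at 363 (319 to 412) against 91.7 (89.8 to 93.7). Ifitm6 had 0 UMIs in the 30 cells, which allows a level of up to 4.49 CPM. These 30 cells held 46.6% of the Ifitm1 UMIs of the remaining class, 10.7% of its Ifitm3 UMIs and 2.70% of its Ifitm2 UMIs. Another set chosen the same way, 47 remaining cells with 5 or more megakaryocyte marker UMIs, Rap1b not counted, had 19.1 CPM of Ifitm1 (12.3 to 28.5), 470 of Ifitm2 (433 to 510) and 101 of Ifitm3 (84.5 to 121). They held 12.2% of the Ifitm3 UMIs and 6.55% of the Ifitm2 UMIs of the class.

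For most pairs of members, but not all, cells with the first gene held the other more often than cells without it. After thinning, 56 remaining cells had an Ifitm1 UMI, and 83.9% of them also had Ifitm2, against 33.6% of cells without Ifitm1. Ifitm3 was found in 32.1% of those 56 and in 5.33% of the rest, but the libraries differed: 51.9% against 4.65% in the CITE-seq library, and 13.8% (4 of 29 cells) against 7.45% in the hashed one. Of 177 cells with Ifitm3, 67.8% had Ifitm2, against 32.5% of those without. All 16 Mpo cells with an Ifitm6 UMI, and all 24 such monocyte-marker cells, also had Ifitm3, against 63.3% and 71.2% of the cells of each class without Ifitm6. Ifitm2 did not go with Ifitm6 in the Mpo cells, where it was found in 81.3% of cells with Ifitm6 and 84.5% of those without. Over all 3357 cells, the natural log values of Ifitm1 and Ifitm3 had a Pearson r of 0.683, Ifitm3 and Ifitm6 of 0.651, Ifitm2 and Ifitm3 of 0.495, Ifitm1 and Ifitm2 of 0.463 and Ifitm2 and Ifitm6 of 0.195. In the 3039 remaining cells r was 0.438 for Ifitm1 and Ifitm3, 0.419 for Ifitm2 and Ifitm3 and 0.324 for Ifitm1 and Ifitm2. Cells share library and depth, so these are descriptions. The sources used here do not say how reads matching several members were counted, so shared reads could add to them.

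Each member had its own set of most similar genes over cells. Among 9677 genes with a UMI in at least 5% of cells, those closest to Ifitm3 were Tyrobp (Pearson r of 0.787), Fcer1g, Spi1, Coro1a and Lcp1, the first 2 being adaptor chains of myeloid receptors and Spi1 encoding PU.1. Those closest to Ifitm6 were Pld4 (0.710), Ms4a6c, Ncf4, Lyz2 and Rassf4, with Ncf4 a subunit of the phagocyte oxidase and Lyz2 lysozyme. Closest to Ifitm1 were Coro1a (0.696), Ifitm3, Psmb8, Plac8 and Emb, with Psmb8 an immunoproteasome subunit. Those closest to Ifitm2 were Cmtm7 (0.716), Gmfg, Arhgdib, Arpc1b and Vim, among them regulators and parts of the cytoskeleton. Over the 3115 cells with fewer than 5 Mpo UMIs, the first was still Tyrobp for Ifitm3 (0.744) and Coro1a for Ifitm1 (0.621), and became Ms4a6c for Ifitm6 (0.742) and Apoe for Ifitm2 (0.692). The remaining class leaves out cells rich in Mpo or monocyte markers, so a loss of myeloid genes there is not a separate result. In the 3039 remaining cells no myeloid adaptor was among the 5 closest to Ifitm3, which were Ctla2a (0.522), Gimap1, Tmsb4x, Zyx and Fxyd5, while Ptprc (0.530) led for Ifitm1 and Apoe (0.697) for Ifitm2. These last names were added after their values were seen.

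Other interferon-stimulated genes were mostly low in every pool. Of 34 in the table, 3 were compared in FACS BFU-E against FACS CFU-E and all were past 1.5-fold: Psmb8 at 125 and 1.44 CPM (86.9-fold, 45.6 to 191), Bst2 at 87.3 and 40.6 (2.15-fold, 1.86 to 2.50) and B2m at 162 and 76.1 (2.13-fold, 1.91 to 2.37). Psmb8 and Bst2 entered only through FACS BFU-E, which fixes their direction. Bst2 encodes tetherin, which holds budding viruses at the cell surface, and B2m the light chain of MHC class I. Without the Mpo cells, Bst2 and B2m were compared, at 1.77-fold (1.51 to 2.08) and 1.48-fold (1.31 to 1.67). In the PE pair the same 3 genes were compared and higher, at 6.46-fold, 2.00-fold and 1.75-fold for Psmb8, Bst2 and B2m, and in the CS pair at 30.7-fold, 2.51-fold and 2.36-fold. The list's median log2 ratio was 1.11, 1.00 and 1.33 in the FACS, PE and CS pairs, beside -0.04, -0.02 and -0.07 over all genes compared, on 3 genes each. Between the methods none of those compared passed 1.5-fold, but these were 3 genes in the early pools and only 1 in the late ones. The rest of the list did not enter, so the values do not show that the methods were alike for it. Classic interferon-stimulated genes were near 0: in the FACS pair, early pool first, Isg15 was at 1.08 and 0.160 CPM, Ifit1 at 0.407 and 0, and Rsad2 at 0 in both. The summed level of the list was 672, 707 and 647 CPM in FACS BFU-E, PE-low and CS BFUE and 342, 402 and 277 in FACS CFU-E, PE-high and CS CFUE. In the remaining cells it was 483, 472 and 503 against 342, 359 and 273.

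Of 20 genes of interferon reception, 4 were compared in the FACS pair and 2 were past 1.5-fold, Irf8 at 65.2 and 0.802 CPM (81.3-fold, 34.6 to 252) and Ifngr1 at 100 and 42.5 CPM (2.36-fold, 2.05 to 2.73). Both were over 50 CPM only in FACS BFU-E, which fixes their direction. Irf8 is also a regulator of the monocyte branch, and without the Mpo cells it no longer entered, while Ifngr1 was 2.66-fold higher (2.29 to 3.08). In the PE pair 3 of 5 were past it, Irf8, Ifnar2 and Ifngr1, and in the CS pair 1 of 3, Ifngr1 at 1.56-fold (1.33 to 1.81). Over all genes compared, 9.58%, 6.94% and 8.77% were that much higher in the early pool of the FACS, PE and CS pairs. Without the Mpo cells 1 of 3, 1 of 4 and 1 of 2 of the list were, beside 6.84%, 5.52% and 6.58%. The list's median log2 ratio in the FACS pair then went from 0.71 on 4 genes to -0.17 on 3, with Irf8 no longer among them. In the PE pair it went from 0.81 on 5 genes to 0.41 on 4. The CS pair then had only 2 genes and no median. No gene of the list that was compared was lower by 1.5-fold in an early pool, but those that entered only through that pool could not be. Jak1 had ratios of 0.932, 0.982 and 1.22 in the 3 pairs. Of 9 genes for partners and modifiers of the proteins, 3, 4 and 3 were compared and 1 passed, Vapa at 1.73-fold (1.59 to 1.88) in the FACS pair. Vapa encodes a membrane contact protein that binds Ifitm3. Nedd4, a ubiquitin ligase that acts on Ifitm3, had ratios of 1.04, 1.08 and 1.08.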

How the data were processed

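Single cells of 2 libraries, hashed and CITE-seq, were read with a 10x 3′ kit per the labels. The tools named in the submitters' processing notes are Cell Ranger 4.0.0 and Scanpy, and the build is mm10. The authors deposited natural log values per cell and gene, which with the log undone sum to 10000 per cell, and a table of cell names. UMIs were recovered by dividing by each cell's smallest value, and every nonzero value (100%) lay within 0.02 of a whole number. The sources used here give neither the filters on cells and genes nor the counting of reads shared by paralogues.

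UMIs were summed per pool and scaled to CPM (Python 3.11.15, numpy 2.4.6, scipy 1.17.1). Levels have exact Poisson, shares of cells exact Clopper-Pearson and ratios exact conditional binomial intervals, at 95%. No test was made, since each pool is 1 sample. A gene was compared where 1 of the pools reached 50 CPM with UMIs in 10% of its cells. In ratios, 0 UMIs were set to 3 per pool. The script for ratios was tested on simulated data. Doublets were not called. The members, lists and limits were chosen with earlier results of these data known. Named genes are the Ifitm genes, Mpo, the 5 genes most correlated with each member, and up to 4 genes of each list by ratio, other names being examples of a list. Alternatives covered cell weighting, scaling, thinning, the Mpo and monocyte limits, the filter and the cell with most member UMIs.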

Additional observations from a re-analysis of the deposited data

Results flagged for a closer look

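The same contrast, magnet fraction against FACS fraction, went opposite ways at the 2 stages for Ifitm1 and Ifitm2, and this difference was not tested. Over all cells the log2 ratio of Ifitm1 was -0.23 in PE-low against FACS BFU-E and 5.38 in PE-high against FACS CFU-E, the latter on 3 UMIs in FACS CFU-E. For Ifitm2 it was -0.24 and 0.78, and without the cells having 5 or more Mpo UMIs -0.13 and 0.55. Without those cells the directions for Ifitm1 were not opposite, with ratios of 1.16 (0.938 to 1.44) and 5.31 (1.63 to 27.3). In the remaining cells they were opposite again, at 0.553 (0.415 to 0.733) and 3.75 (1.10 to 19.8). The former rests in part on a single FACS BFU-E cell with 35 of 140 UMIs, and the latter on 3 UMIs in FACS CFU-E.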

How the results depend on the processing

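No paired analysis was possible because each pool is 1 sample without replicates. Scaling by the median ratio, thinning to 20000 UMIs and leaving out the cell with most member UMIs in each pool kept all 10 family log2 ratios within their counting intervals. Thinning to 6000 UMIs moved 5: the FACS pair to 3.86 and, without Mpo cells, 3.39, the PE pair to 2.01, and PE-high against FACS CFU-E to 1.91 and, without Mpo cells, 1.04. Weighting cells equally moved the PE pair to 1.99 and PE-high against FACS CFU-E to 1.69. Leaving out cells with 2 or more Mpo UMIs gave 2.35 for the PE pair, 2.68 for the CS pair and 0.033 for PE-low against FACS BFU-E. Leaving out those with 1 or more gave 2.58 for the CS pair, and those with 10 or more 0.22 for PE-low against FACS BFU-E. With monocyte-marker cells also out, the family log2 ratio was 2.34 in the PE pair, -0.19 in PE-low against FACS BFU-E and 0.46 in PE-high against FACS CFU-E, and Ifitm3 reversed to -0.066 and -0.48 in those last 2 comparisons. Besides these 2 values, the members' own log2 ratios under the alternatives gave 198 values within the counting interval and 32 beyond it. A sign change was counted as a reversal only where the reported ratio was at least 1.5-fold either way. The 32 thus include a sign change of Ifitm1 in PE-low against FACS BFU-E without Mpo cells. It went from 0.22 to -0.85 with monocyte-marker cells also out. Ifitm6 ratios that are bounds were not recomputed. The count of genes past 1.5-fold either way was 5021, 5081, 5004, 2383 and 2429 in the FACS, PE, CS, early-method and late-method comparisons with no filter but 3 UMIs, and 4193, 4530, 4357, 2312 and 2013 without Mpo cells. With a filter of 100 CPM it was 318, 209, 283, 11 and 11, and 234, 172, 213, 4 and 8. The cause was not tested. A pool with 0 UMIs of a gene allows up to 0.273 to 1.01 CPM.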
